A study of Neurospora crassa OR74A with 15 samples.

Results

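Mycelia of the filamentous fungus Neurospora crassa given pectin as their carbon source were compared with mycelia given sucrose. The comparison took the 3 libraries labelled as wild type on pectin and the 3 labelled as wild type on sucrose, 6 of the 15 libraries of the study. Both groups came from 1 wild-type strain, FGSC 2489, and carried no deletion or transgene in their labels. Cultures grew from conidia for 16 h in light in a minimal salt medium with 2% sucrose, were washed in the same salts without carbon, and were harvested 4 h after transfer. The pectin group then had 1% pectin and the sucrose group had 2% sucrose. The series' design text calls the 3 libraries of each group biological replicates. The labels credit the pectin libraries to the study itself and the sucrose libraries to an earlier one, so in this comparison carbon source and study cannot be told apart. The percentage of the carbon source and the kind of deposited table, gene-level or transcript-level, differ along the same split and cannot be told apart from it either. A further 3 groups are quoted beside some genes without a test. These are orange peel powder at 1% (2 libraries, from the newer study), Avicel, a microcrystalline cellulose, at 2%, and medium with no carbon (3 libraries each, from the earlier study). The 1 library on 2% xylan is quoted for the amino acid synthesis lists.

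Pectin is the galacturonic acid-rich polysaccharide of the primary plant cell wall. Its backbone is a chain of galacturonate, in places alternating with rhamnose, and its side chains are made of arabinose and galactose. A fungus that lives on it secretes enzymes that cut the backbone and the side chains, imports the sugar acid and the sugars released, and converts galacturonate into pyruvate and glycerol by a dedicated pathway that does not pass through upper glycolysis. Sucrose is split outside the cell into glucose and fructose, which enter glycolysis directly and repress the genes for other carbon sources.

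Transcript levels were given as FPKM, which scale fragments by transcript length and by the number mapped in the library, for 9733 loci. Of these, 8700 averaged 1 FPKM or more in the libraries fitted and were tested with limma on log2(FPKM + 1). A call needed both a Benjamini-Hochberg adjusted p below 0.05, over all genes tested, and a log2 fold change of 1 or more in either direction, and every adjusted p below comes from that fit. Fold changes are pectin over sucrose on the log2(FPKM + 1) scale, which understates the change of low genes. Libraries of 1 group correlated at 0.978 to 0.984 on pectin and 0.957 to 0.989 on sucrose, and at 0.779 to 0.839 between the groups (Pearson's r of log2 values across genes; genes are no independent replicates). Sucrose replicate 1 stood apart from the other two: it had 2341 loci listed at 0 against 1645 and 1842, and its deposited coverage implied 61.9 megabases of mapped sequence against 238 and 209. Avicel replicate 1 was alike, with 1684 loci at 0 against 1036 and 1048, and 60.4 megabases against 386 and 355. The pectin libraries had 953 to 1029 loci at 0, and their depth is unknown. The 100 highest genes took 33.5% to 34.5% of the summed FPKM on pectin and 44.0% to 54.5% on sucrose. The label "mycelia" has no marker list here. The chitin synthase genes, which build the hyphal wall, were measured above 0 in all 6 libraries, from 8.70 FPKM for chs-6 to 643 FPKM for chs-1.

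The difference between the groups covered a large share of the genome. Of the 8700 genes tested, 3552 (40.8%) were called, 2317 higher on pectin (26.6%) and 1235 lower (14.2%). The 3 pectin libraries did not overlap the 3 sucrose libraries for 5688 genes (65.4%). The increases were the larger changes: 136 genes were higher by at least 6 on the log2 scale and 5 were lower by as much. Genes called higher were low on sucrose, with a median level of 12.2 FPKM there and 78.7 FPKM on pectin. Genes called lower were abundant on sucrose, with a median of 508 FPKM there and 128 FPKM on pectin. Of the genes called higher, 412 were listed at 0 in all 3 sucrose libraries and 459 had both group means under 10 FPKM, so many of these calls rest on low values. Without sucrose replicate 1 the counts were 2231 higher and 1439 lower. The split depended on scaling: of the genes called, 65.2% were higher with the FPKM as deposited, 72.9% after upper-quartile scaling and 45.6% after quantile normalization. These scalings moved the median of all genes, which was 0.18, by 0.208 and by -0.368 on the log2 scale. In bulk libraries, fewer cells of a type and less RNA per cell cannot be told apart.

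**Figure D1:**
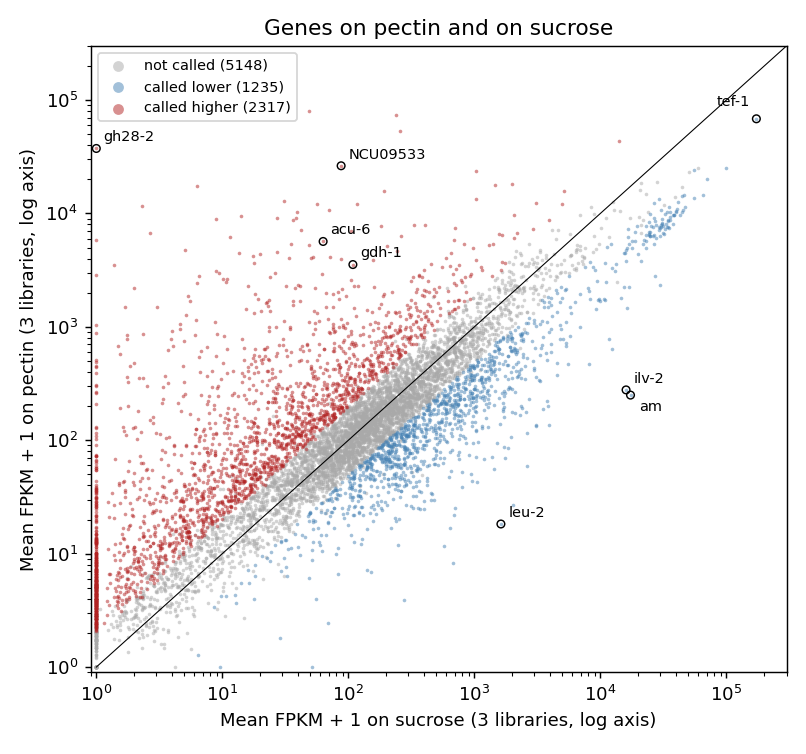
Mean FPKM + 1 of 8700 genes on pectin (vertical axis) against sucrose (horizontal axis), both log axes, 3 libraries each. Red points are the 2317 genes called higher on pectin, blue points the 1235 called lower and grey points the 5148 not called. The line marks equal levels, and gh28-2 lies on the left edge because it was listed at 0 on sucrose.

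The gene lists below hold named pathways and complexes, and their members' fold changes are plotted by list. Every count of called members is to be read beside the shares over all genes tested, 26.6% higher and 14.2% lower. Pectin, galacturonate, xylan and pentose genes lay at the high end, with medians from 5.27 to 8.28. Amino acid synthesis genes lay at the low end, with medians from -1.90 to -4.24.

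**Figure D2:**
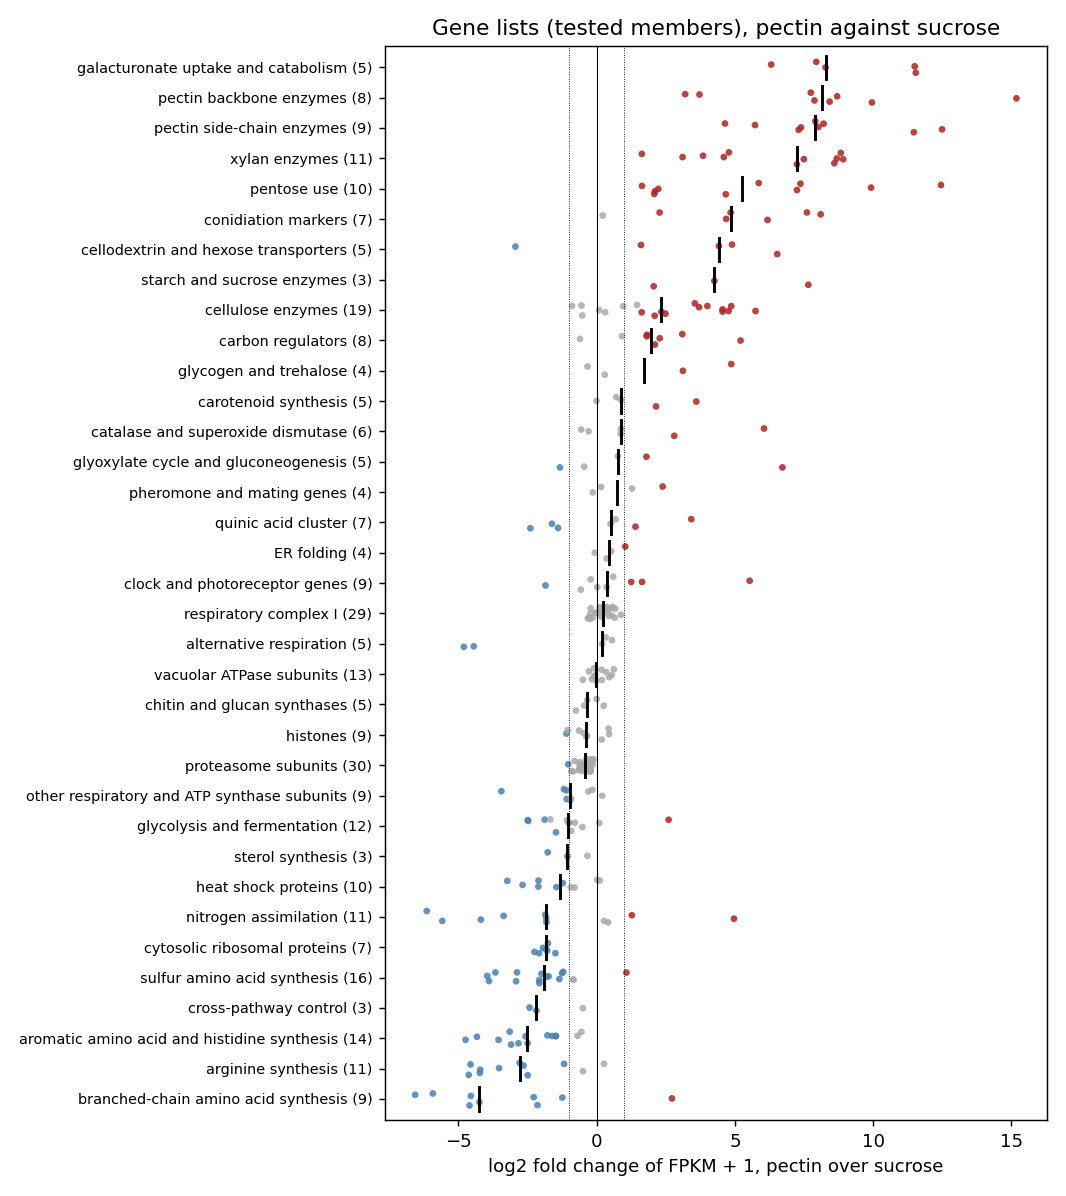
Log2 fold change of FPKM + 1, pectin over sucrose, for the tested members of 35 gene lists, ordered by median. Each point is a gene (red called higher, blue called lower, grey not called), vertical bars are list medians and the number tested stands in parentheses, and dotted lines mark a log2 fold change of 1 and -1. All 29 complex I genes lie between the dotted lines, and all 5 galacturonate genes lie above 6.

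All 8 listed genes for cutting the pectin backbone rose. They were called higher, against 26.6% of all genes tested, and their median log2 fold change was 8.15. List medians hold genes listed at 0 on sucrose at their fitted value, which depends on the pseudocount. The list summed to 1.86%, 1.63% and 1.43% of all FPKM in the pectin libraries and to 0.00604%, 0.00289% and 0.00253% in the sucrose libraries. The strongest was gh28-2 (NCU06961, contig 10.4, positions 4670149 to 4671713), which encodes a polygalacturonase, an enzyme that hydrolyses the galacturonate chain. It stood at 42839, 34758 and 34637 FPKM on pectin and 0, 0 and 0 FPKM on sucrose. It was thus listed at 0 in every sucrose library and among the most abundant transcripts in every pectin library, and no fold is given against 0 (adjusted p = 1.9e-12). On orange peel powder its mean was 16910 FPKM, on Avicel 564 and without carbon 565.

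Another polygalacturonase gene, gh28-1, was called as well. It stood at 754, 561 and 846 FPKM on pectin and 67.5, 83.5 and 78.6 FPKM on sucrose, a log2 fold change of 3.20 ± 0.19 (SE), adjusted p = 6.0e-08. Unlike gh28-2, it was measured in each sucrose library, and its means without carbon (16.4 FPKM) and on Avicel (20.4 FPKM) were below that on sucrose. The gene asd-1, a rhamnogalacturonase first known from ascus development, had 1178, 1018 and 820.0 FPKM on pectin and 166, 61.2 and 40.6 FPKM on sucrose. The groups did not overlap, but sucrose replicate 1 was the highest of the sucrose libraries, and the log2 fold change was 3.72 ± 0.42 (SE), adjusted p = 1.3e-05.

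The 5 other backbone genes have no symbol in the gene table used here. Those with the largest fold changes, NCU06326, NCU08176 and NCU10045, are given by identifier. NCU02654 and NCU09976 were called higher as well, and their values are not given here. NCU06326 stood at 14755, 11430 and 12373 FPKM on pectin and 30.2, 30.7 and 28.6 FPKM on sucrose (log2 fold change 8.70 ± 0.62 (SE), adjusted p = 2.8e-07). NCU08176 stood at 7878, 11375 and 7564 FPKM on pectin and 9.86, 6.65 and 7.34 FPKM on sucrose (log2 fold change 9.96 ± 0.27 (SE), adjusted p = 1.1e-10). NCU10045 stood at 10984, 10338 and 5837 FPKM on pectin and 39.6, 20.4 and 17.9 FPKM on sucrose (log2 fold change 8.42 ± 0.40 (SE), adjusted p = 1.0e-08). Each was abundant on pectin and at or under 40 FPKM in every sucrose library. Their orange peel powder means, 3323, 2448 and 2451 FPKM, lay between the pectin and sucrose means. Avicel separated them: NCU08176 and NCU10045 reached 1637 and 1635 FPKM there, and NCU06326 only 162. That last mean came mostly from Avicel replicate 1, as the libraries had 395, 47.3 and 43.7 FPKM.

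Enzymes for the arabinan and galactan side chains rose as well. Of 10 listed genes 9 were tested and 9 were called higher, with a median of 7.91. The other, NCU00852, was listed at 0 in all 6 libraries and fell below the filter. NCU09170 stood at 4946, 5536 and 6940 FPKM on pectin and NCU09775 at 3315, 2548 and 2714 FPKM, and both were listed at 0 in all 3 sucrose libraries. The gene gh35-1, of the family of β-galactosidases, which release galactose from galactan, had 3651, 3104 and 5801 FPKM on pectin and 20.8, 18.9 and 9.98 FPKM on sucrose. Its pectin mean was 253 times its sucrose mean, and the log2 fold change was 7.91 ± 0.30 (SE), adjusted p = 1.5e-09. NCU02343 had 9655, 7976 and 13199 FPKM on pectin and 31.96, 48.5 and 34.7 FPKM on sucrose (log2 fold change 8.02 ± 0.60 (SE), adjusted p = 3.9e-07). On Avicel it had 2018, 13543 and 12376 FPKM, a mean of 9312 FPKM, with Avicel replicate 1 far below the others. By contrast gh35-1 had a mean of 158 FPKM on Avicel.

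Genes for the uptake and catabolism of galacturonate rose together. All 5 listed genes were called higher, with a median of 8.28, their groups did not overlap, and the list held 1.47%, 1.46% and 1.47% of all FPKM in the pectin libraries. In the sucrose libraries it held 0.00439%, 0.00212% and 0.00231%. NCU09533 (contig 10.5, positions 4497262 to 4498786) stood at 25082, 25632 and 28242 FPKM on pectin and 118, 62.9 and 78.9 FPKM on sucrose, a log2 fold change of 8.28 ± 0.35 (SE), adjusted p = 3.5e-09. NCU09532, which lies next to it (contig 10.5, positions 4493703 to 4495029), had 18823, 16268 and 17681 FPKM on pectin and 8.98, 3.75 and 3.32 FPKM on sucrose and a log2 fold change of 11.54 ± 0.35 (SE), adjusted p = 2.3e-10. The neighbours thus reached similar levels on pectin, while on sucrose NCU09533 kept a measurable level and NCU09532 stayed under 10 FPKM.

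NCU07064 had 7346, 10093 and 10093 FPKM on pectin and 51.01, 29.1 and 31.2 FPKM on sucrose (log2 fold change 7.94 ± 0.24 (SE), adjusted p = 2.3e-10). NCU01906 had 4676, 4205 and 3612 FPKM on pectin and 53.6, 51.8 and 48.1 FPKM on sucrose (log2 fold change 6.31 ± 0.31 (SE), adjusted p = 1.4e-08). NCU00988 had 7349, 7158 and 5515 FPKM on pectin and 0, 2.73 and 2.21 FPKM on sucrose (log2 fold change 11.50 ± 0.40 (SE), adjusted p = 5.9e-10). This last gene was near 0 on sucrose and abundant on pectin, with sucrose replicate 1 listed at 0. Without carbon, NCU00988 already had a mean of 1140 FPKM, whereas NCU07064 had 197 and NCU01906 314 FPKM. On orange peel powder the 5 genes ranged from 2386 FPKM (NCU01906) to 13439 FPKM (NCU09533).

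**Figure D3:**
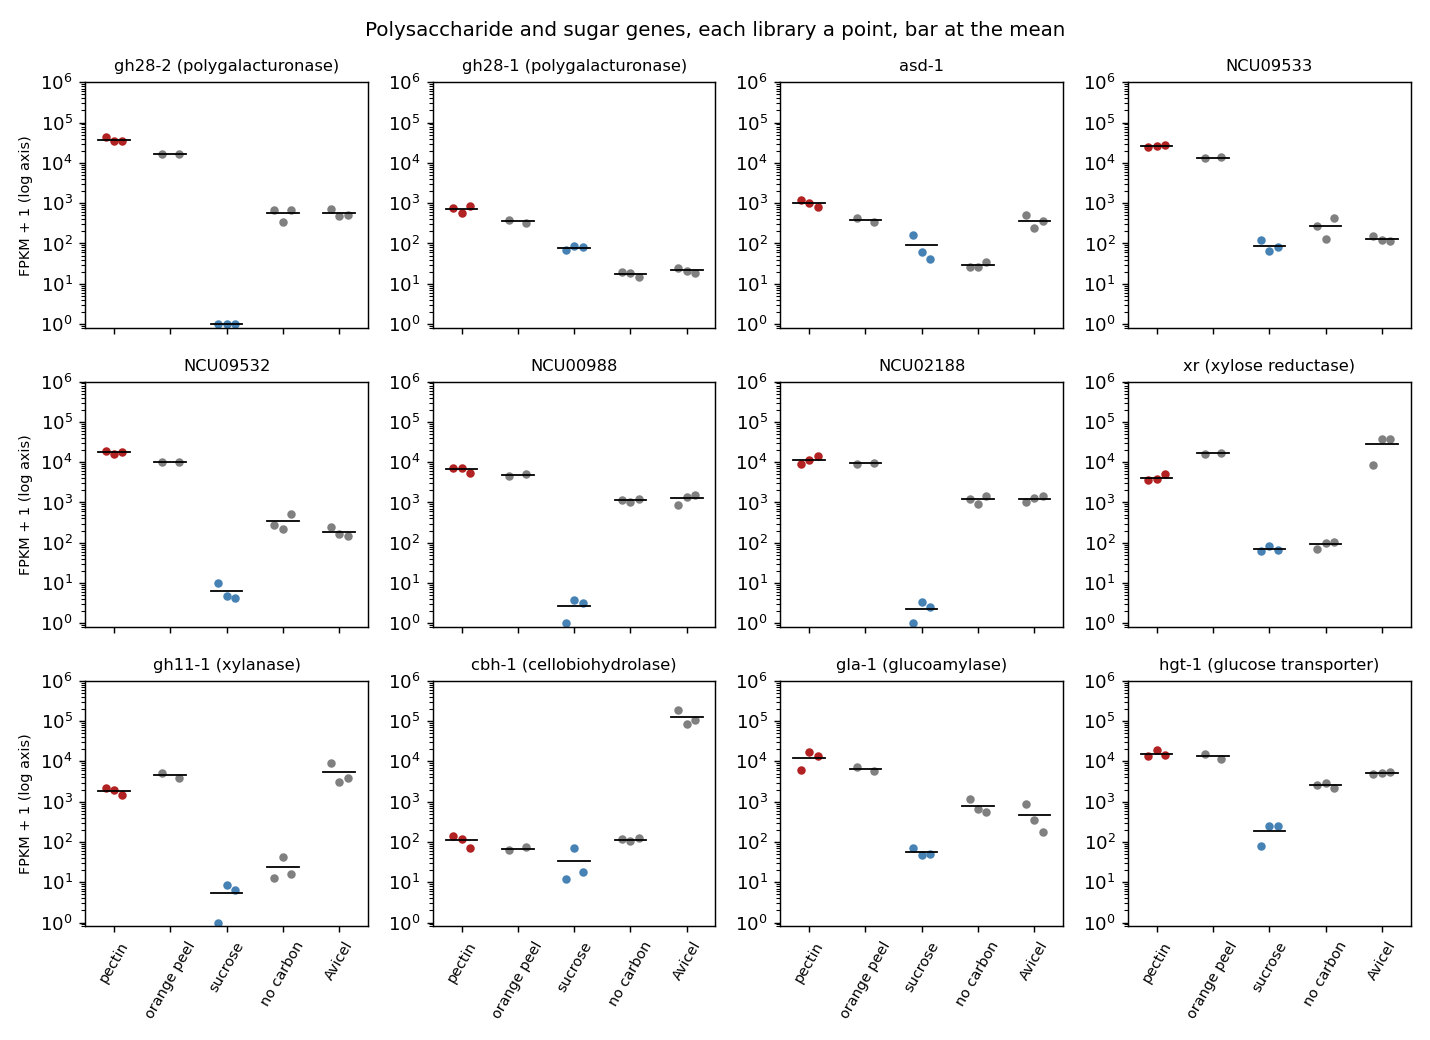
FPKM + 1 (log axis) of 12 polysaccharide and sugar genes in each library of 5 carbon conditions, with bars at group means; red is pectin, blue is sucrose and grey are groups shown for context. Pectin libraries lie above sucrose libraries in each panel, and the cellobiohydrolase gene cbh-1 is far higher on Avicel than on pectin.

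Genes for using pentoses, the sugars of arabinan and xylan, were higher on pectin in 10 of 10 cases, with a median log2 fold change of 5.27. NCU02188 had the largest increase of the list. It stood at 9087, 11647 and 13916 FPKM on pectin and 0, 2.35 and 1.53 FPKM on sucrose (log2 fold change 12.45 ± 0.36 (SE), adjusted p = 2.0e-10). NCU01132 had 1115, 1138 and 2202 FPKM on pectin and 0, 2.06 and 0 FPKM on sucrose, with sucrose replicates 1 and 3 listed at 0. The gene xr, for xylose reductase, the first enzyme of the fungal pentose pathway, averaged 4153 ± 798 FPKM on pectin and 70.2 ± 11.3 FPKM on sucrose (log2 fold change 5.86 ± 0.45 (SE), adjusted p = 5.0e-07). The smallest increase of the list was that of the xylulokinase gene xyk-1, at 1.64. NCU00643 had 5408, 6124 and 9872 FPKM on pectin and 47.2, 38.4 and 37.2 FPKM on sucrose, and it neighbours the β-galactosidase family gene gh35-1 on contig 10.1 (positions 7723694 to 7725193 and 7727091 to 7730592).

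Genes for xylan-degrading enzymes rose on pectin. All 11 listed genes were called higher, with a median of 7.24, and 10 did not overlap. The xylanase gene gh11-1 had 2214, 1944 and 1443 FPKM on pectin and 0, 7.37 and 5.59 FPKM on sucrose (log2 fold change 8.92 ± 0.72 (SE), adjusted p = 7.5e-07). Another xylanase gene, gh10-1, had 1165, 945 and 625 FPKM on pectin and 0, 8.94 and 0 FPKM on sucrose (log2 fold change 8.68 ± 0.71 (SE), adjusted p = 8.1e-07). Both were listed at 0 in sucrose replicate 1 and stayed under 10 FPKM in the other sucrose libraries. For gh10-2, with 1261, 1249 and 1458 FPKM on pectin and 0, 42.96 and 7.97 FPKM on sucrose, the sucrose libraries spread most (log2 fold change 7.49 ± 1.04 (SE), adjusted p = 7.6e-05). On Avicel the means of gh10-1 and gh10-2 were 19787 and 38118 FPKM, far above those on pectin, while that of gh3-7, of the glycoside hydrolase family GH3, was 219 FPKM against 576 ± 298 FPKM on pectin. Without sucrose replicate 1, 10 of the 11 genes were called.

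Cellulose-degrading enzymes were a mixed group. Of 19 listed genes 12 were called higher and 7 were not called, with a median of 2.34. The largest increase was that of gh6-3, with 1061, 2381 and 3601 FPKM on pectin and 29.8, 50.1 and 36.5 FPKM on sucrose (log2 fold change 5.75 ± 0.42 (SE), adjusted p = 3.3e-07). The β-glucosidase gene gh1-1 had 659.6, 634 and 359.7 FPKM on pectin and 13.2, 47.1 and 16.04 FPKM on sucrose (log2 fold change 4.55 ± 0.39 (SE), adjusted p = 1.2e-06). The most abundant cellulase gene on Avicel, cbh-1, was called higher but was low in this comparison, with 109 ± 34.2 FPKM on pectin and 32.7 ± 32.6 FPKM on sucrose against 125864 FPKM on Avicel. Its call was lost when the 6 libraries were fitted alone with a term for replicate number (log2 fold change 2.10, adjusted p = 0.0519). Among those not called were gh6-2, with 47.7 ± 10.3 FPKM on pectin and 70.2 ± 15.7 FPKM on sucrose, and cdh-1, the cellobiose dehydrogenase gene, with 11.2 ± 2.92 FPKM on pectin and 16.4 ± 3.90 FPKM on sucrose. After quantile normalization 10 genes of the list were called higher and 2 lower.

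Sugar transporter genes moved in both directions. The glucose transporter gene hgt-1 had 13918, 18934 and 14321 FPKM on pectin and 76.99, 242 and 252 FPKM on sucrose (log2 fold change 6.53 ± 0.37 (SE), adjusted p = 3.6e-08). The cellodextrin transporter genes cdt-1 and cdt-2, whose products import cellulose fragments, averaged 1090 ± 244 and 508 ± 212 FPKM on pectin and 52.9 ± 24.4 and 22.3 ± 23.9 FPKM on sucrose (log2 fold changes 4.42 and 4.89). In the opposite direction, NCU01633 of the same list had 500.5, 1382 and 217 FPKM on pectin and 3955, 4272 and 4026 FPKM on sucrose (log2 fold change -2.94 ± 0.92 (SE), adjusted p = 0.016). Its pectin libraries differed widely from each other, and without pectin replicate 3 its adjusted p was 0.0701.

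The enzymes that split starch and sucrose were higher on pectin than on sucrose itself. The glucoamylase gene gla-1, for an enzyme that releases glucose from starch, had 6102, 16880 and 13678 FPKM on pectin and 70.9, 47.5 and 48.2 FPKM on sucrose (log2 fold change 7.66 ± 0.53 (SE), adjusted p = 2.3e-07). The invertase gene inv, for the enzyme that splits sucrose, had 5028, 9225 and 9455 FPKM on pectin and 313, 426 and 468 FPKM on sucrose (log2 fold change 4.26 ± 0.84 (SE), adjusted p = 0.00102). The gene gh13-1, of the α-amylase family, had 7411, 6185 and 6093 FPKM on pectin and 1656, 1543 and 1500 FPKM on sucrose (log2 fold change 2.06 ± 0.16 (SE), adjusted p = 6.2e-07). In all 3 genes every pectin library was above every sucrose library. Without carbon the means were 786 FPKM for gla-1, 749 for inv and 6887 for gh13-1, so only gh13-1 was as high there as on pectin.

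Of 8 regulators of carbon use, 6 were called higher, against 26.6% of all genes tested. The gene of the xylanase regulator xlr-1 had 380.3, 369 and 298 FPKM on pectin and 5.39, 10.5 and 10.5 FPKM on sucrose (log2 fold change 5.20 ± 0.22 (SE), adjusted p = 3.1e-09). The cellulase regulator genes clr-1 and clr-2 had 249.5, 181 and 173 and 40.7, 33.9 and 16.2 FPKM on pectin, and 53.01, 43.3 and 40.4 and 2.13, 2.75 and 2.42 on sucrose (log2 fold changes 2.11 and 3.10). For these regulators the groups did not overlap, but clr-2 remained low in absolute terms next to its Avicel mean of 1311 FPKM. The transcription factor gene col-26 had 1263, 1266 and 709.6 FPKM on pectin and 164, 233 and 256 FPKM on sucrose (log2 fold change 2.28 ± 0.51 (SE), adjusted p = 0.00238). NCU09033 and NCU05846 averaged 170.4 ± 46.5 and 173 ± 25.6 FPKM on pectin and 47.5 ± 13.1 and 48.8 ± 7.79 FPKM on sucrose (log2 fold changes 1.82 and 1.81). Without carbon the means were 334 FPKM for xlr-1 and 190 for clr-1, near the pectin means of 349 and 201. Those of clr-2, col-26, NCU09033 and NCU05846 were 11.8, 532, 127 and 136 FPKM without carbon, between the sucrose and pectin means.

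The other 2 regulators were not called. The gene of the carbon catabolite repressor cre-1, which holds back genes for other carbon sources when glucose is present, had 439.8, 527 and 249 FPKM on pectin and 566, 551 and 649.7 FPKM on sucrose (log2 fold change -0.60 ± 0.61 (SE), adjusted p = 0.416). The spread of the other groups fitted is part of that SE. There cre-1 had 699.5, 113 and 140 FPKM on Avicel and 190, 424 and 121 FPKM without carbon. The transcription factor gene vib-1 had 915, 944 and 947 FPKM on pectin and 644, 440.3 and 432 FPKM on sucrose (log2 fold change 0.91 ± 0.23 (SE), adjusted p = 0.00517), under the fold threshold. It passed that threshold without sucrose replicate 1, at 1.10, and after upper-quartile scaling, at 1.13. For both cre-1 and vib-1 the pectin and sucrose libraries did not overlap, as was so for 65.4% of all genes tested.

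The transcripts of highest level on pectin were mostly genes without a symbol, and their identifiers carry no role here. NCU07159 (contig 10.5, positions 6393940 to 6395650) had 79920, 92609 and 68186 FPKM on pectin and 41.8, 49.9 and 50.3 FPKM on sucrose (log2 fold change 10.69 ± 0.38 (SE), adjusted p = 7.0e-10). NCU07200 (contig 10.5, positions 6261934 to 6263231) had 76726, 80822 and 64441 FPKM on pectin and 202, 263 and 244 FPKM on sucrose (log2 fold change 8.29 ± 0.74 (SE), adjusted p = 1.8e-06). In both, every pectin library was above every sucrose library by more than an order of magnitude. NCU10040 (contig 10.4, positions 5939026 to 5940994) had 64842, 61043 and 35168 FPKM on pectin and 164, 392 and 213 FPKM on sucrose (log2 fold change 7.75 ± 0.42 (SE), adjusted p = 2.7e-08). Orange peel powder means were 45415, 33898 and 51393 FPKM for these 3 genes. Without carbon they were 329, 2420 and 25836 FPKM, so that NCU10040 was high there and the other two were not. The translation elongation factor gene tef-1 was among the 5 highest on pectin, at 68336 ± 12804 FPKM, and the highest of all on sucrose, at 173005 ± 17144 FPKM (log2 fold change -1.35 ± 0.40 (SE), adjusted p = 0.0117). Its call was lost after quantile normalization (log2 fold change -0.89, adjusted p = 0.242). It was also lost, at the same fold change as above, with no filter on low values (adjusted p = 0.425) and with values under 10 FPKM set to 10 (adjusted p = 0.224).

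Genes of central carbon metabolism diverged. The phosphoenolpyruvate carboxykinase gene acu-6, for the entry step of gluconeogenesis, had 6172, 5436 and 5374 FPKM on pectin and 115, 33.1 and 38.3 FPKM on sucrose (log2 fold change 6.72 ± 1.42 (SE), adjusted p = 0.00162). Its pectin libraries were within a narrow range, and sucrose replicate 1 was the highest of the sucrose libraries. The SE also holds the spread of the other groups fitted. There acu-6 had 1161, 12642 and 600 FPKM without carbon and 9303, 584 and 82.7 FPKM on Avicel. The glyoxylate cycle genes did not move as a block: acu-3, for isocitrate lyase, averaged 666 ± 159.6 FPKM on pectin and 393 ± 113 FPKM on sucrose and was not called (adjusted p = 0.0771). The malate synthase gene acu-9 had 1175, 1259 and 968 FPKM on pectin and 886, 202 and 188 FPKM on sucrose (log2 fold change 1.80 ± 0.71 (SE), adjusted p = 0.0457), and its call was lost without any 1 of 5 libraries, pectin replicate 1, 2 or 3 or sucrose replicate 2 or 3, with adjusted p from 0.0732 to 0.156, and after quantile normalization (0.068). The acetyl-CoA hydrolase gene acu-8 was lower, at 344 ± 54.6 FPKM on pectin and 860.4 ± 75.5 FPKM on sucrose (log2 fold change -1.33 ± 0.22 (SE), adjusted p = 0.00027).

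Glycolysis and fermentation genes were lower in 5 of 12 cases and higher in 1, with a median of -1.04. After quantile normalization 3 were called lower. The pyruvate kinase gene ace-8, for the last step of glycolysis, had 1348, 2033 and 1950 FPKM on pectin and 8873, 10532 and 9860 FPKM on sucrose (log2 fold change -2.48 ± 0.25 (SE), adjusted p = 4.9e-06). The phosphoglycerate kinase gene pgk had 2446, 2834 and 2337 FPKM on pectin and 10999, 9020 and 8142 FPKM on sucrose (log2 fold change -1.88 ± 0.21 (SE), adjusted p = 1.0e-05), and emp-3 had 358, 515 and 354 FPKM on pectin and 2592, 2139 and 2106 FPKM on sucrose (log2 fold change -2.49 ± 0.24 (SE), adjusted p = 3.4e-06). For these 3 genes the groups did not overlap and the sucrose means were 5.49, 3.70 and 5.57 times the pectin means. NCU07550 was lower by less (log2 fold change -1.01 ± 0.16 (SE), adjusted p = 0.000227) and fell under the fold threshold without sucrose replicate 1, at -0.93, and without pectin replicate 1, at -0.97.

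The fermentation genes varied widely between the sucrose libraries. The alcohol dehydrogenase gene adh-1 had 10410, 20421 and 16375 FPKM on pectin and 12382, 2702 and 465 FPKM on sucrose, so that sucrose replicate 1 lay within the pectin range (log2 fold change 2.60 ± 1.04 (SE), adjusted p = 0.0485). The gene was no longer called when pectin replicate 1, 2 or 3 or sucrose replicate 2 or 3 was left out, with adjusted p from 0.0682 to 0.22, and with the 6 libraries fitted alone. The pyruvate decarboxylase gene cfp had 888, 3610 and 2982 FPKM on pectin and 34410, 4347 and 2083 FPKM on sucrose and was not called (adjusted p = 0.405). Sucrose replicate 1 was the highest of all 6 libraries for cfp.

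Amino acid synthesis genes were lower across pathways. Of 50 genes in 4 lists, 42 were called lower and 2 higher, against 14.2% of all genes tested called lower. The lists were drawn up by gene symbol, so the count includes some genes of other roles. Among these are the tRNA synthetase genes leu-5 and leu-6, the sulfate permease gene cys-14 and the arylsulfatase gene ars-1. The list medians against sucrose were also low without carbon and on Avicel, where they were -4.33 and -4.29 for branched-chain amino acids and -4.62 and -3.81 for arginine. For aromatic amino acids and histidine they were -3.45 and -2.03, and for sulfur amino acids -2.64 and -2.63. In the 1 xylan library the share of all FPKM lay between the pectin and sucrose shares for all 4 lists. The branched-chain list held 0.309% there, against 0.0407% to 0.0518% on pectin and 0.416% to 0.472% on sucrose. For branched-chain amino acids 8 of 9 were called lower, with a median of -4.24. The gene leu-2, for the isopropylmalate isomerase of leucine synthesis, showed the largest decrease of any gene tested. It (contig 10.4, positions 3538211 to 3541554) had 10.8, 12.97 and 28.1 FPKM on pectin and 1225, 1655 and 1991 FPKM on sucrose (log2 fold change -6.56 ± 0.43 (SE), adjusted p = 1.3e-07). The gene ilv-2, of isoleucine and valine synthesis, had 177, 228 and 426 FPKM on pectin and 12406, 16204 and 19370 FPKM on sucrose (log2 fold change -5.92 ± 0.40 (SE), adjusted p = 1.8e-07), and leu-1, for isopropylmalate dehydrogenase, had 95.97, 116 and 182 FPKM on pectin and 2778, 3374 and 3137 FPKM on sucrose (log2 fold change -4.60 ± 0.26 (SE), adjusted p = 4.1e-08). In each, the sucrose libraries were above every pectin library by an order of magnitude or more. The one gene of the list called higher was ilv-5, at 557 ± 166 FPKM on pectin and 110.0 ± 107 FPKM on sucrose (log2 fold change 2.72). The list also holds leu-5 and leu-6, which are leucyl-tRNA synthetase genes and changed by -1.24 and -2.14.

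For arginine, 9 of 11 genes were called lower, with a median of -2.79. The gene arg-2, for the small subunit of the arginine-specific carbamoyl phosphate synthetase, had 194, 214 and 190.4 FPKM on pectin and 2830, 4559 and 4072 FPKM on sucrose (log2 fold change -4.22 ± 0.35 (SE), adjusted p = 8.9e-07). Its partner arg-3, for the large subunit, had 56.4, 56.00 and 143 FPKM on pectin and 1582, 1885 and 2062 FPKM on sucrose (log2 fold change -4.56 ± 0.48 (SE), adjusted p = 7.1e-06). The acetylornithine aminotransferase gene arg-5 and the argininosuccinate lyase gene arg-10 changed by -4.63 and -4.21. The genes not called were arg-14, with 259 ± 38.8 FPKM on pectin and 214 ± 11.5 FPKM on sucrose, and arg-15, with 75.4 ± 10.97 FPKM on pectin and 109 ± 33.4 FPKM on sucrose.

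For aromatic amino acids and histidine, 12 of 14 genes were called lower, with a median of -2.53. The gene aro-1, for the multifunctional enzyme of the shikimate pathway, had 43.3, 41.4 and 79.4 FPKM on pectin and 1209, 1486 and 1603 FPKM on sucrose (log2 fold change -4.74 ± 0.28 (SE), adjusted p = 5.7e-08). The tryptophan synthase gene trp-3 had 92.98, 269 and 271 FPKM on pectin and 1976, 1588 and 1517 FPKM on sucrose (log2 fold change -3.15 ± 0.38 (SE), adjusted p = 2.3e-05). For sulfur amino acids 13 of 16 were called lower and 1, ars-1 (arylsulfatase), was called higher, with a median of -1.90. The methionine synthase gene met-8 was the most abundant of them on sucrose, with 1936, 2490 and 2627 FPKM on pectin and 31152, 27440 and 29925 FPKM on sucrose (log2 fold change -3.66 ± 0.31 (SE), adjusted p = 1.2e-06). The sulfate permease gene cys-14 had 21.5, 32.7 and 16.5 FPKM on pectin and 465, 328 and 324 FPKM on sucrose (log2 fold change -3.96 ± 0.58 (SE), adjusted p = 0.000111). The increase of ars-1, at 1.08, was no longer called without any 1 of the 6 libraries, and its sign turned after quantile normalization, at -0.67.

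The regulators of amino acid synthesis followed the same direction in part. The gene cpc-1, for the transcription factor of cross-pathway control, which activates amino acid synthesis genes when amino acids run short, had 1791, 1866 and 1553 FPKM on pectin and 6576, 11796 and 10410 FPKM on sucrose (log2 fold change -2.43 ± 0.23 (SE), adjusted p = 3.0e-06). The ribosome-associated protein gene cpc-2 had 6386, 6350 and 9959 FPKM on pectin and 26173, 35854 and 39827 FPKM on sucrose (log2 fold change -2.18 ± 0.57 (SE), adjusted p = 0.00636), and the kinase gene cpc-3 was not called, at 65.6 ± 3.12 FPKM on pectin and 98.6 ± 42.97 FPKM on sucrose. The call of cpc-2 was lost after quantile normalization (adjusted p = 0.11). The means of cpc-1 without carbon and on Avicel were 4637 and 4912 FPKM, between those on pectin and on sucrose, whereas those of leu-2, 23.7 and 15.6 FPKM, were near the pectin mean.

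**Figure D4:**
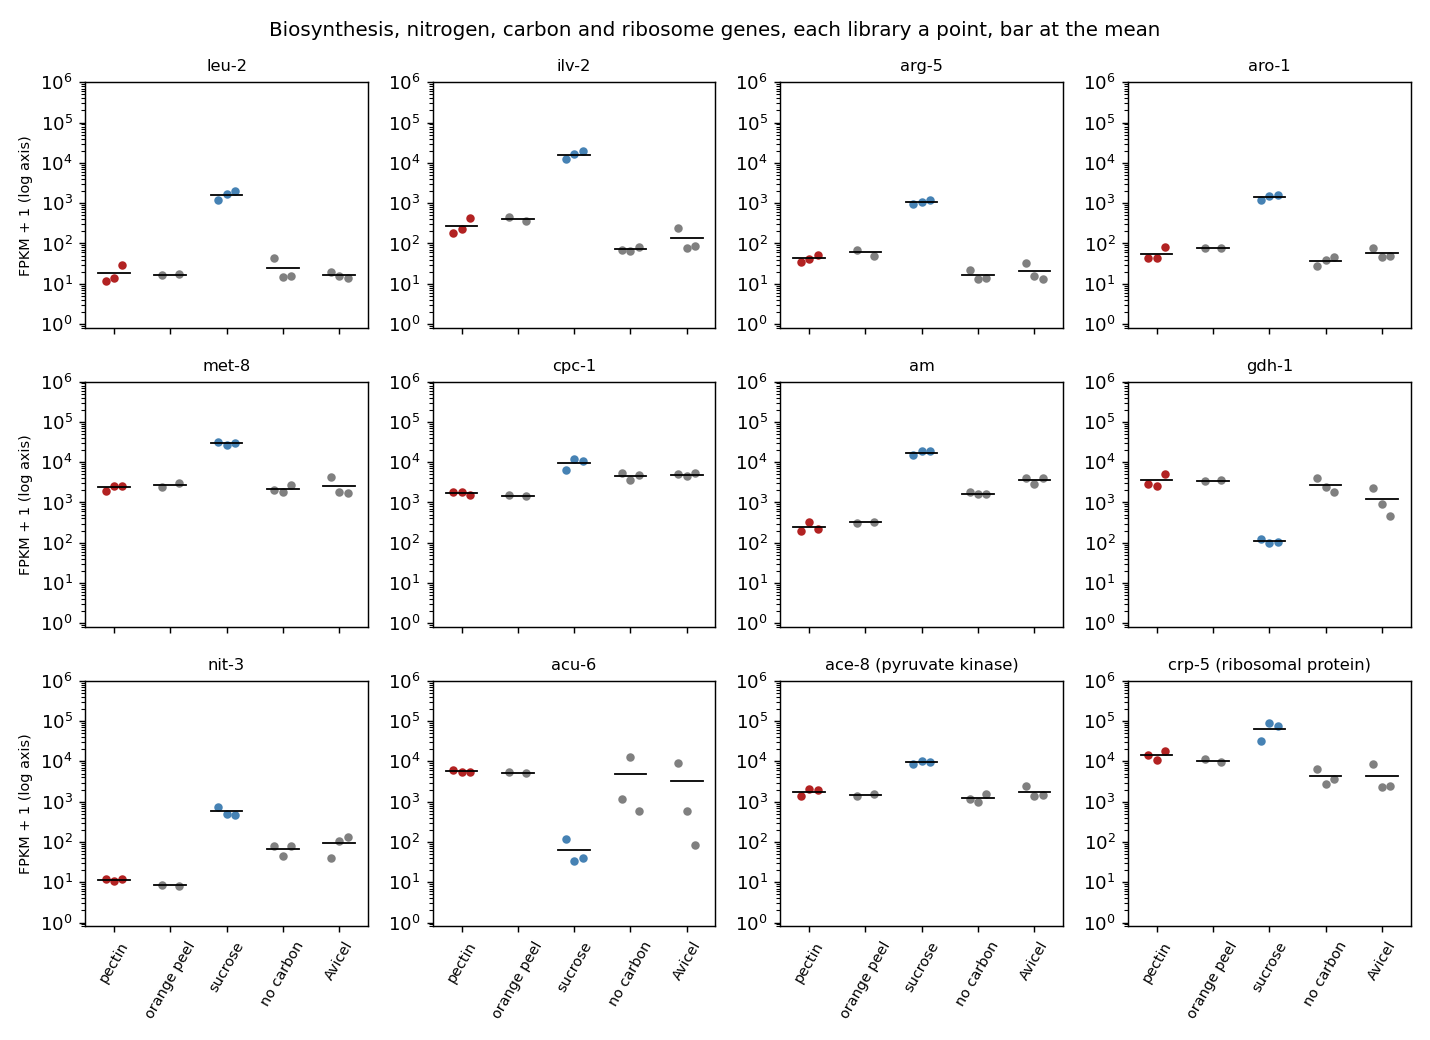
FPKM + 1 (log axis) of 12 genes of amino acid synthesis, nitrogen and carbon metabolism and the ribosome in each library of 5 carbon conditions, with bars at group means; red is pectin, blue is sucrose and grey are groups shown for context. The genes gdh-1 and acu-6 are higher on pectin, and the other 10 are lower on pectin than on sucrose.

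The glutamate dehydrogenase genes moved in opposite directions. The gene am encodes the NADP-dependent enzyme, which makes glutamate from ammonium, and gdh-1 encodes the NAD-dependent enzyme, which breaks glutamate down. The gene am (contig 10.5, positions 3200932 to 3202838) had 194, 330.4 and 223 FPKM on pectin and 14824, 18741 and 18475 FPKM on sucrose (log2 fold change -6.14 ± 0.21 (SE), adjusted p = 4.4e-10). The gene gdh-1 (contig 10.3, positions 3944256 to 3949945) had 2888, 2621 and 5116 FPKM on pectin and 121, 99.2 and 103 FPKM on sucrose (log2 fold change 4.97 ± 0.48 (SE), adjusted p = 3.6e-06). The sucrose mean of am was 69.6 times its pectin mean, and the pectin mean of gdh-1 was 32.9 times its sucrose mean. On orange peel powder the means were 318 FPKM for am and 3482 FPKM for gdh-1. Without carbon they were 1661 and 2766 FPKM.

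The list of nitrogen assimilation genes, to which both belong, was mostly lower: 7 of 11 were called lower and 2, gdh-1 and nmr, higher. The nitrate reductase gene nit-3 had 10.8, 9.90 and 11.3 FPKM on pectin and 757, 488 and 469 FPKM on sucrose (log2 fold change -5.58 ± 0.39 (SE), adjusted p = 2.3e-07). The nitrate transporter gene nit-10 had 30.9, 37.5 and 45.8 FPKM on pectin and 1310, 661 and 401 FPKM on sucrose (log2 fold change -4.19 ± 0.34 (SE), adjusted p = 8.5e-07). Both were uniformly low on pectin, and in both sucrose replicate 1 was the highest library. The regulator genes nit-2 and nmr changed by -1.82 and 1.27, and nit-4, at 35.1 ± 3.15 FPKM on pectin and 26.1 ± 1.90 FPKM on sucrose, was not called. The L-amino acid oxidase gene lao, outside the list, was among the 10 largest decreases of genes with a symbol, with 11.1, 12.1 and 24.00 FPKM on pectin and 786, 530.0 and 616 FPKM on sucrose (log2 fold change -5.33 ± 0.27 (SE), adjusted p = 1.5e-08).

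Some of the largest decreases fell on genes without a symbol. NCU04942 had 6.69, 10.03 and 5.29 FPKM on pectin and 404, 714 and 928.0 FPKM on sucrose (log2 fold change -6.31 ± 0.31 (SE), adjusted p = 1.2e-08). NCU08226 had 18.6, 35.2 and 24.1 FPKM on pectin and 1649, 2234 and 2238 FPKM on sucrose (log2 fold change -6.28 ± 0.26 (SE), adjusted p = 2.9e-09). Both were also low without carbon, at means of 16.9 and 21.9 FPKM, and on Avicel, at 20.4 and 27.7 FPKM.

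The cytosolic ribosomal protein genes that carry a crp symbol were lower on pectin in 7 of 7 cases, from -1.49 to -2.25, with a median of -1.82. The gene crp-5 had 14554, 10802 and 18118 FPKM on pectin and 32407, 88681 and 75144 FPKM on sucrose (log2 fold change -2.08 ± 0.54 (SE), adjusted p = 0.0057). The gene crp-15 had 5362, 5938 and 8284 FPKM on pectin and 20248, 36108 and 38764 FPKM on sucrose (log2 fold change -2.25 ± 0.55 (SE), adjusted p = 0.00411). Sucrose replicate 1 was the lowest sucrose library for both, though above every pectin library. This group depended on scaling: after quantile normalization 1 of the 7 was called lower. Without pectin replicate 1 or 2 or sucrose replicate 2 or 3, 5 were called lower. The earlier study's own libraries without carbon and on Avicel had crp-5 at 4335 and 4418 FPKM, below pectin.

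Respiratory genes were called in part. With limma, none of the 29 complex I genes was called in either direction. Of them, 11 had an unadjusted limma p below 0.05, against 5390 of all 8700 genes tested. Their fold changes ran from -0.32 to 0.88, with a median of 0.23. After upper-quartile scaling 1 was called higher, and without sucrose replicate 3 also 1. The complex I list held 1.38%, 1.25% and 1.25% of all FPKM on pectin and 0.873%, 0.722% and 0.684% on sucrose, where the total was larger. Its own summed FPKM were 59100, 54000 and 55500 on pectin and 46000, 51300 and 48500 on sucrose. Of 9 other respiratory and ATP synthase subunit genes, 4 were called lower, and cyt-1, qcr7, qcr8, cox-4 and cox-6 were not called. The cytochrome c gene cyc-1 had 1484, 1246 and 1623 FPKM on pectin and 11453, 19811 and 17131 FPKM on sucrose (log2 fold change -3.45 ± 0.54 (SE), adjusted p = 0.000184), and the ATP synthase genes atp-1 and atp-2 and the iron-sulfur protein gene fes-1 were lower by less, at -1.19, -1.09 (0.18 after quantile normalization) and -1.08. Of these 4 calls 1 was left after quantile normalization and 1 after upper-quartile scaling; atp-2 was also lost without sucrose replicate 1 and fes-1 without sucrose replicate 3. The alternative NADH dehydrogenase genes ndi-1 and nde-2, whose products bypass complex I, had larger decreases. The gene ndi-1 had 20.9, 16.04 and 25.2 FPKM on pectin and 262, 819 and 990.2 FPKM on sucrose (log2 fold change -4.80 ± 0.47 (SE), adjusted p = 3.7e-06), and nde-2 had 122, 106 and 178 FPKM on pectin and 1731, 3537 and 3964 FPKM on sucrose (log2 fold change -4.45 ± 0.31 (SE), adjusted p = 2.2e-07). The other 3 genes of the alternative respiration list were not called, though 1 was called higher without sucrose replicate 1. Among them, the alternative oxidase gene aod-1 had 239, 584 and 448 FPKM on pectin and 737, 192 and 291 FPKM on sucrose. The mitochondrial ADP/ATP carrier gene aac, among the 5 highest on sucrose, averaged 20258 ± 2193 FPKM on pectin and 70367 ± 4575 FPKM on sucrose (log2 fold change -1.80 ± 0.37 (SE), adjusted p = 0.00147).

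Heat shock protein genes were called lower in 6 of 10 cases, against 14.2% of all genes tested, and called higher in none. The Hsp70 family gene hsp70-2 had 2430, 2026 and 4003 FPKM on pectin and 14734, 31180 and 35572 FPKM on sucrose (log2 fold change -3.23 ± 0.71 (SE), adjusted p = 0.00208), and the mitochondrial chaperonin gene hsp60 had 229, 304 and 614 FPKM on pectin and 1991, 2222 and 2555 FPKM on sucrose (log2 fold change -2.68 ± 0.33 (SE), adjusted p = 2.7e-05). The stress-inducible hsp30 and hsp98 averaged 177 ± 58.8 and 443 ± 34.9 FPKM on pectin and 158 ± 13.9 and 476 ± 248 FPKM on sucrose and were not called. Of the 4 genes of folding in the endoplasmic reticulum, through which secreted enzymes pass, 1 was called: NCU09223, with 3642 ± 1074 FPKM on pectin and 1760 ± 481 FPKM on sucrose, at 1.03. It fell under the fold threshold without pectin replicate 1 or 2 or sucrose replicate 2 or 3, at 0.86 to 0.93. The chaperone gene grp78 averaged 4716 ± 1113 FPKM on pectin and 3303 ± 995 FPKM on sucrose and was not called (adjusted p = 0.0871), against 13687 FPKM on Avicel.

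Several housekeeping complexes showed few calls, against 40.8% of all genes tested. Of all 8700 genes tested, 5390 had an unadjusted limma p below 0.05. With limma, none of 13 vacuolar ATPase genes was called (median -0.02, 5 at an unadjusted p below 0.05). The vacuolar ATPase list held 0.353%, 0.326% and 0.3% of all FPKM on pectin and 0.268%, 0.187% and 0.169% on sucrose, where the total was larger. Its own summed FPKM were 15200, 14100 and 13300 on pectin and 14100, 13300 and 11900 on sucrose. None of 5 chitin synthase genes was called (median -0.34, 3 at an unadjusted p below 0.05), and 1 was called lower after quantile normalization. Of 30 proteasome genes 1 was called lower by limma (median -0.42, 16 at an unadjusted p below 0.05). All 30 fold changes were negative, from -1.03 to -0.11. The proteasome list held 0.515%, 0.458% and 0.449% of all FPKM on pectin and 0.642%, 0.361% and 0.344% on sucrose. Its own summed FPKM were lower on pectin, at 22100, 19800 and 19900 against 33900, 25600 and 24400 on sucrose. The proteasome call, rpn-2, was lost without sucrose replicate 1 and without pectin replicate 1, and after upper-quartile scaling and quantile normalization. Of 9 histone genes only hH2B was called, lower at -1.09 ± 0.39 (SE), adjusted p = 0.0321 (0.35 after quantile normalization), and it lost its call without any 1 of 5 libraries, pectin replicate 1, 2 or 3 or sucrose replicate 2 or 3. Without sucrose replicate 1, 2 histone genes were called lower. Histone H4 is encoded by near-identical genes, whose reads the deposited values may divide in ways not shown.

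Conidiation markers, genes of asexual spore formation, were called higher in 6 of 7 cases, against 26.6% of all genes tested, with a median of 4.84. The hydrophobin gene eas, for the water-repellent spore coat, had 6245, 7201 and 2025 FPKM on pectin and 62.5, 388 and 155 FPKM on sucrose (log2 fold change 4.84 ± 0.66 (SE), adjusted p = 6.6e-05). The gene con-10 had 213, 118 and 94.1 FPKM on pectin and 0, 5.38 and 0 FPKM on sucrose and con-6 had 1158, 692 and 399.7 FPKM on pectin and 0, 8.01 and 3.85 FPKM on sucrose (log2 fold changes 6.18 and 7.60). Pectin replicate 3 was the lowest pectin library for all 3 genes, and the groups did not overlap. The developmental regulator fl, which starts conidiation, was not called, with 52.6, 46.4 and 24.8 FPKM on pectin and 28.1, 36.04 and 37.6 FPKM on sucrose. The levels without carbon were far higher than on pectin, at 116679 FPKM for eas and 1942 FPKM for con-10. The summed level of the list was 0.975%, 0.792% and 0.361% of all FPKM in the pectin libraries and 0.0285%, 0.025% and 0.00746% in the sucrose libraries. Its part in the other results was not tested.

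The mating genes stayed low in both groups. Of 6 listed genes 4 were tested and 1 was called higher, a count near the 26.6% of all genes tested. The gene called was the pheromone receptor gene pre-2, at a low level, with 4.47, 4.82 and 3.48 FPKM on pectin and 0, 0 and 0 FPKM on sucrose. Its call was lost after quantile normalization (adjusted p = 0.222) and with values under 10 FPKM set to 10. The pheromone precursor gene ccg-4 had 25.00, 25.6 and 17.00 FPKM on pectin and 6.37, 45.2 and 25.1 FPKM on sucrose and was not called, against 1335 FPKM without carbon.

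**Figure D5:**
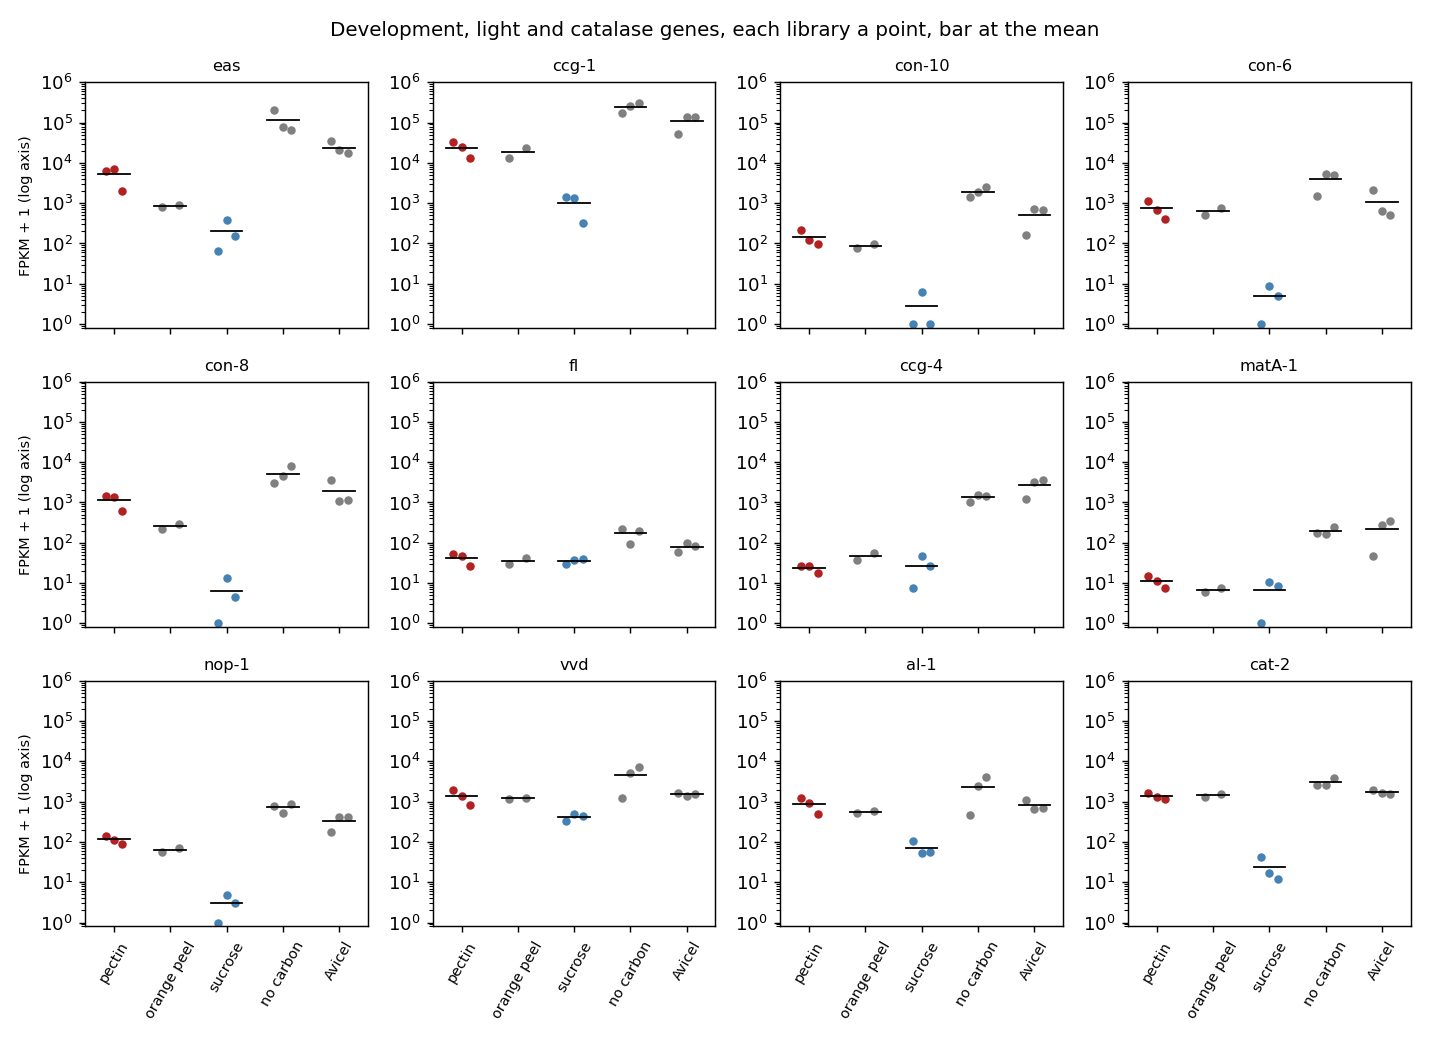
FPKM + 1 (log axis) of 12 genes of development, light sensing, pigment and catalase in each library of 5 carbon conditions, with bars at group means; red is pectin, blue is sucrose and grey are groups shown for context. The conidiation genes eas, ccg-1, con-10, con-6 and con-8 are higher on pectin than on sucrose and highest without carbon, while fl, ccg-4 and matA-1 overlap between pectin and sucrose.

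Of 6 genes of the catalase and superoxide dismutase list, 2 were called higher, a count near the 26.6% of all genes tested. These were the catalase genes cat-1 and cat-2, for enzymes that remove hydrogen peroxide, and the other 4 genes were not called. After upper-quartile scaling 4 genes of the list were called higher. The gene cat-2 had 1615, 1345 and 1153 FPKM on pectin and 41.3, 15.7 and 11.1 FPKM on sucrose (log2 fold change 6.05 ± 0.36 (SE), adjusted p = 5.6e-08), and cat-1 had 322, 332 and 238 FPKM on pectin and 85.7, 59.3 and 13.4 FPKM on sucrose (log2 fold change 2.81 ± 0.56 (SE), adjusted p = 0.00111). Every pectin library exceeded every sucrose library for both. The trehalase gene tre-1, for the enzyme that splits the storage sugar trehalose, had 208, 322 and 205 FPKM on pectin and 3.04, 11.1 and 10.5 FPKM on sucrose (log2 fold change 4.87 ± 0.48 (SE), adjusted p = 4.6e-06), and the trehalose synthase gene ccg-9 had 59.7, 166 and 66.3 FPKM on pectin and 55.6, 4.33 and 2.44 FPKM on sucrose (log2 fold change 3.12 ± 1.03 (SE), adjusted p = 0.021). The call of ccg-9 was lost without pectin replicate 2 or sucrose replicate 2 or 3 (adjusted p from 0.0759 to 0.0923), and also after quantile normalization (0.0616), with the 6 libraries fitted alone (0.054) and with values under 10 FPKM set to 10 (0.0729). Without carbon tre-1 and ccg-9 averaged 368 and 182.5 FPKM, above their pectin means of 245 and 97.2 FPKM. The glycogen genes gsy-1 and gnn, at 2425 ± 412 FPKM on pectin and 1963 ± 66.8 FPKM on sucrose and at 874 ± 148 FPKM on pectin and 1115 ± 311 FPKM on sucrose respectively, were not called.

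Of the genes named here, gh28-2, NCU09533, ilv-2, arg-3, pgk, ace-8, NCU07550 and adh-1 overlap another locus of the tables. The labels do not say that the library kit kept strand, so reads in such overlaps cannot be assigned to 1 gene.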

How the data were processed

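Messenger RNA of Neurospora crassa mycelia was bound to oligo dT beads, broken into fragments and reverse transcribed from random primers, per the labels' protocols. The authors deposited 1 table of FPKM values per library: gene-level for pectin, orange peel powder and xylan, transcript-level for sucrose, Avicel and no carbon. The transcript-level tables also hold a coverage signal, per the file headers, from which mapped sequence was derived. The submitters' processing notes list Cuffdiff, Cufflinks 0.9.3 and TopHat 1.2.0. Genome build and gene models: not given in the sources used here.

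Transcript FPKM were added up within a locus (164 loci had more than 1 transcript), and 9733 loci were joined by identical coordinates. The gene-level identifiers were used, since 863 loci carried different ones in the 2 kinds of table. Positions count from 1. RefSeq's gene table for assembly NC12 held 9215 of the identifiers and gave 1113 of them a symbol. FPKM are not counts, so log2(FPKM + 1) was fitted in limma 3.58.1 (R 4.3.3) with a variance trend over 14 libraries of 5 replicated groups, which share 1 estimate of the spread (9 residual and 2.94 prior degrees of freedom). Tests are two-sided; an exact permutation test of 3 against 3 libraries could not go below p = 0.1. The code was tested on simulated data.

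The authors' pooled FPKM matched the library means within 1% for 100% of 7008 genes of at least 20 FPKM on pectin and for 5.98% of 6340 on sucrose, where 98.0% matched within 1.5-fold. Near-identical paralogs may share reads.

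The comparison, gene lists and naming rule were chosen with earlier results of these data known. Named are up to 4 called genes of each list with the largest change, all galacturonate and regulator genes, list members not called (values only), the 10 largest changes with a symbol and 5 by identifier in each direction among genes whose libraries do not overlap, the 5 highest genes per group, and the longest runs of called neighbours. Outside that rule, gh28-1, asd-1, xr, xyk-1, cbh-1, ilv-5, leu-5, leu-6, ars-1, nit-2, nmr and qa-1S were chosen after their values were seen. Of the list entries, 11 were not found by symbol. Alternatives varied the pseudocount, filter, scaling, variance model, thresholds, samples in the fit, replicate block, low values, joining and single libraries. Leaving out Avicel replicate 1 and sucrose replicate 1 together was added after seeing the data.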

Additional observations from a re-analysis of the deposited data

How the results depend on the processing

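The count of genes called (3552) stayed within 1.5 times under every alternative except a threshold of 2 on the log2 fold change, which left 1691 genes, 1289 higher and 402 lower. After quantile normalization 1334 genes were called higher, against 2317, and 1594 lower. With values under 10 FPKM set to 10, 1581 were called higher and 1196 lower. Leaving out single libraries gave 3237 to 3670 calls, 2104 to 2270 higher and 1085 to 1439 lower. Leaving out Avicel replicate 1 and sucrose replicate 1 together gave 2393 higher and 1471 lower.

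Replicate numbers did not pair the samples: deviations of same-numbered pectin and sucrose libraries correlated at -0.0891, -0.147 and 0.175. With the replicate block, 3525 genes were called in 14 libraries and 3296 in the 6 libraries alone.

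Of 170 named genes called, 17 lost their call without 1 library. Signs turned after quantile normalization for atp-2 (NCU05430, 0.18), phy-2 (NCU05790, -0.61), hH2B (NCU02435, 0.35), NCU06110 (0.29) and ars-1 (NCU06041, -0.67). Joined by identifier, signs turned for NCU11815 (14.62), NCU11791 (-3.61), NCU11792 (-2.65) and NCU12033 (-2.47), whose identifiers name different loci in the 2 kinds of table. Depth limits low values most in sucrose replicate 1, and the depth of the pectin libraries is unknown.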

Other observations

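Light-related genes, in cultures that the labels describe as grown in light, were called about as often as all genes tested (40.8%). Of 9 clock and photoreceptor genes, 3 were called higher and 1 lower. Without sucrose replicate 1 only 1 was called higher. The opsin gene nop-1 had 142, 114 and 90.8 FPKM on pectin and 0, 3.88 and 2.11 FPKM on sucrose (log2 fold change 5.53 ± 0.50 (SE), adjusted p = 2.1e-06), and the blue-light receptor gene vvd had 1904, 1370 and 842 FPKM on pectin and 326, 495 and 445 FPKM on sucrose (log2 fold change 1.64 ± 0.52 (SE), adjusted p = 0.0174). The call of vvd was lost without sucrose replicate 1 (adjusted p = 0.0538) and without pectin replicate 1 (adjusted p = 0.0713). The third gene called higher, phy-2, was low, with 2.88, 3.86 and 3.68 FPKM on pectin and 0, 1.46 and 1.67 FPKM on sucrose (log2 fold change 1.25 ± 0.40 (SE), adjusted p = 0.0187). Its call was lost without sucrose replicate 1 or pectin replicate 2 or 3 (adjusted p from 0.0503 to 0.0604), and its sign turned after quantile normalization, at -0.61. The clock helicase gene frh had 100.4, 80.7 and 113 FPKM on pectin and 139, 539.9 and 584 FPKM on sucrose (log2 fold change -1.85 ± 0.42 (SE), adjusted p = 0.00255), with sucrose replicate 1 far below the other two. The clock gene frq and the photoreceptor gene wc-1 were not called, at 162 ± 18.1 FPKM on pectin and 243 ± 40.9 FPKM on sucrose for frq and 89.4 ± 4.77 FPKM on pectin and 104 ± 4.78 FPKM on sucrose for wc-1. Of 5 carotenoid genes, al-1 (phytoene dehydrogenase) and cao-2 (torulene dioxygenase) were called higher, with 1240, 915 and 485 FPKM on pectin and 105, 51.1 and 54.9 FPKM on sucrose for al-1 and log2 fold changes of 3.60 and 2.15. The genes al-2, al-3 and ylo-1 were not called. After upper-quartile scaling, and without pectin replicate 1, 3 of the 5 were called higher.

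The quinic acid cluster, a set of neighbouring genes for using quinate, moved in both directions at low levels. Of 7 genes, qa-X and qa-2 were called higher, against 26.6% of all genes tested, and qa-3, qa-1S and qa-1F lower, against 14.2%. The quinate dehydrogenase gene qa-3 had 1.78, 4.11 and 13.98 FPKM on pectin and 25.2, 32.2 and 34.9 FPKM on sucrose (log2 fold change -2.40 ± 0.55 (SE), adjusted p = 0.00266), and qa-X had 15.2, 19.9 and 96.03 FPKM on pectin and 0, 2.94 and 5.79 FPKM on sucrose (log2 fold change 3.42 ± 0.70 (SE), adjusted p = 0.00131). Pectin replicate 3 was the highest pectin library for both. The call of qa-2 was lost without pectin replicate 3 (adjusted p = 0.17), sucrose replicate 1 (0.123) or sucrose replicate 2 (0.0617), with the 6 libraries fitted alone (0.0997), with no filter on low values (0.0603), with values under 10 FPKM set to 10 (0.0661) and after quantile normalization (0.661). Of 3 sterol genes, erg-1 and erg-4 were called lower, at -1.77 and -1.06. That of erg-4 fell under the fold threshold without pectin replicate 2, at -0.97, after upper-quartile scaling, at -0.84, and after quantile normalization, at -0.94.

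Called genes formed runs of neighbours. There were 42 runs of at least 5 neighbouring loci called higher and 1 such run called lower. The longest were 4 runs of 9 loci called higher, on contigs 10.1, 10.2, 10.4 and 10.7. The run on contig 10.2 (positions 4239137 to 4281187) holds the side-chain enzyme gene NCU09775 and 8 other loci, of which NCU09777 had 379, 446 and 515 FPKM on pectin and 0, 6.92 and 4.74 FPKM on sucrose. The run on contig 10.4 (positions 5907128 to 5945204) holds NCU10040, with 53685 ± 16148 FPKM on pectin, and NCU05160, with 1356 ± 49.2 FPKM on pectin and 252 ± 101 FPKM on sucrose. The longest run of genes called lower had 5 loci, on contig 10.3 (positions 4403479 to 4413948). It holds NCU07550, which was not called without sucrose replicate 1 or pectin replicate 1, nor after either scaling, so the run breaks there. Among the runs called higher, that on contig 10.4 ends in NCU10038, which fell under the fold threshold without sucrose replicate 1, at 0.93, or pectin replicate 2, at 0.96. That on contig 10.7 ends in NCU12034, not called without any 1 of 5 libraries, pectin replicate 1, 2 or 3 or sucrose replicate 1 or 3 (adjusted p from 0.0538 to 0.084). Each of the 4 longest runs holds loci whose call was lost after quantile normalization or with values under 10 FPKM set to 10. With 40.8% of genes called, neighbours called alike are frequent, and whether these runs are longer than that share gives was not tested.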
